A study of Mus musculus with 22 samples.

Results

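The question addressed here was what distinguished cells at the third passage in 2iL from cells at the second passage, early in the expansion of reverted mouse epiblast stem cells (mEpiSCs). The comparison used 4 of the 22 bulk RNA-seq libraries, taken by their labels: AICAR d16+3p and AICAR+LIF d16+3p on one side, AICAR d16+2p and AICAR+LIF d16+2p on the other, paired by treatment. All 4 came from Oct4GIP, a single mEpiSC line of 129/Ola origin that carries an Oct4-driven eGFP-ires-Puro transgene. The cells were plated for 1 day on MEF (mouse embryonic fibroblast) feeders in medium containing Activin A and FGF2, then kept for 16 days in Basal medium with the AMPK activator AICAR, with or without the cytokine LIF. The whole unsorted cultures were then dissociated, replated on gelatin and passaged in 2iL, so that all 4 libraries shared the line, the AICAR exposure and the 2iL medium. Each combination of treatment and passage had 1 library, the 2 treatments standing in as samples of a passage, and no source says that libraries came from independent cultures. The p-values therefore measure only the spread between these libraries, part of which may be technical.

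Primed mEpiSCs resemble the post-implantation epiblast and depend on FGF and Activin signaling, whereas naive embryonic stem cells resemble the pre-implantation epiblast. 2iL holds the naive state with LIF, which signals through STAT3, with the MEK inhibitor PD0325901, which blocks ERK signaling, and with the GSK3 inhibitor CHIR99021, which stabilizes beta-catenin and thereby switches on Wnt target genes. Cells that do not self-renew in this medium are usually lost over successive passages. In bulk RNA, fewer cells of a type and less RNA per cell cannot be told apart.

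The total number of counted reads was 3404489 in AICAR d16+2p, 2678787 in AICAR+LIF d16+2p, 2880848 in AICAR d16+3p and 3046574 in AICAR+LIF d16+3p. Levels are given as CPM, that is counts scaled to a common library total with TMM factors, on which 3 counts correspond to between 0.888 and 1.14 CPM. These limits cover counting error only. The label of reverted, naive-like cells was checked against 8 naive markers (Zfp42, Esrrb, Tfcp2l1, Klf2, Klf4, Nr5a2, Pecam1 and Dppa5a). Their summed level was 3262 and 3109 CPM at d16+2p and 3503 and 3550 CPM at d16+3p, against 22.1 CPM in primed Oct4GIP mEpiSCs and 4519 CPM in naive mESCs. Each of the 8 was detected above 3 counts in all 4 libraries. The 6 primed markers (Fgf5, Otx2, Pou3f1, T, Eomes and Foxa2) summed to between 19.2 and 31.9 CPM.

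Before any result, 2 features of these libraries matter. First, the 2 d16+2p libraries were nearly alike. Their chi-square per degree of freedom over 13451 genes was 1.39, the lowest of all 55 pairs among the 11 reverted libraries, where the next lowest was 4.18 and the highest 20.2. By binomial tests with Benjamini-Hochberg adjustment, 24 genes (0.178%) differed between them, against 13.9% to 17.3% for the other 5 pairs among the 4 libraries. They differed by slightly more than sampling noise, which does not show whether they came from 1 culture or 2. They were kept as 2 libraries by their labels, and the main count is also given with both summed to 1 library. Every p-value of the main fit below depends on this choice. Second, whole chromosomes shifted in single d16+3p libraries: the median of chromosome 8 genes was 0.48 higher on the log2 scale in the AICAR pair, and that of chromosome 15 genes 0.52 higher in the AICAR+LIF pair. Genes on these chromosomes are marked as such below.

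Of 13305 genes tested, 187 changed between the passages (1.41%), 58 higher at d16+3p (0.436%) and 129 lower (0.970%), at an adjusted p under 0.05 in edgeR's quasi-likelihood test with the treatment as a block. The largest changes were falls of collagen and contractile genes, led by Acta2 and Col1a2, and a rise of Egr1, the immediate early transcription factor downstream of ERK. Without the treatment block 41 genes were called (9 higher, 32 lower). Of the 47 named genes called with the block, 15 were also called without it: Col1a1, Col1a2, Col3a1, Acta2, Egr1, Peg10, Tcl1, Lefty2, Shmt2, Rec8, Serinc5, Tuft1, Pcolce, Crip1 and Tle5. The other 32, among them Lef1 (adjusted p = 0.0535), Sp5 (0.0611), Dppa3 (0.0719), Bmp4 (0.105) and Dazl (0.121), were not. Among the 187, 100 changed by at least 1 on the log2 scale, 25 upward and 75 downward. At an unadjusted p under 0.05 in the same test, 2103 of the 13305 genes passed in either direction. Counts at that threshold in the gene lists below are to be read beside this share. All 187 moved in the same direction in both treatment pairs, as did 8304 of the 13305 tested genes (62.4%). The test favors genes whose 2 pairs agree, so for the 187 this is no separate evidence. The 2 pairs also rest on d16+2p libraries that were nearly alike, so they may not be independent. The count rested on single libraries: it was 11 without AICAR d16+2p, 1 without AICAR+LIF d16+2p, 2435 without AICAR d16+3p and 2181 without AICAR+LIF d16+3p. With the 2 d16+2p libraries summed and counted as 1, the genes called were 6: Col1a1, Col1a2, Acta2, Mrpl9, Peg10 and Egr1. A fit that added the 2 AICAR d16+10p and AICAR+LIF d16+10p libraries of Oct4GIP called 1 gene, Col1a1.

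**Figure D1:**
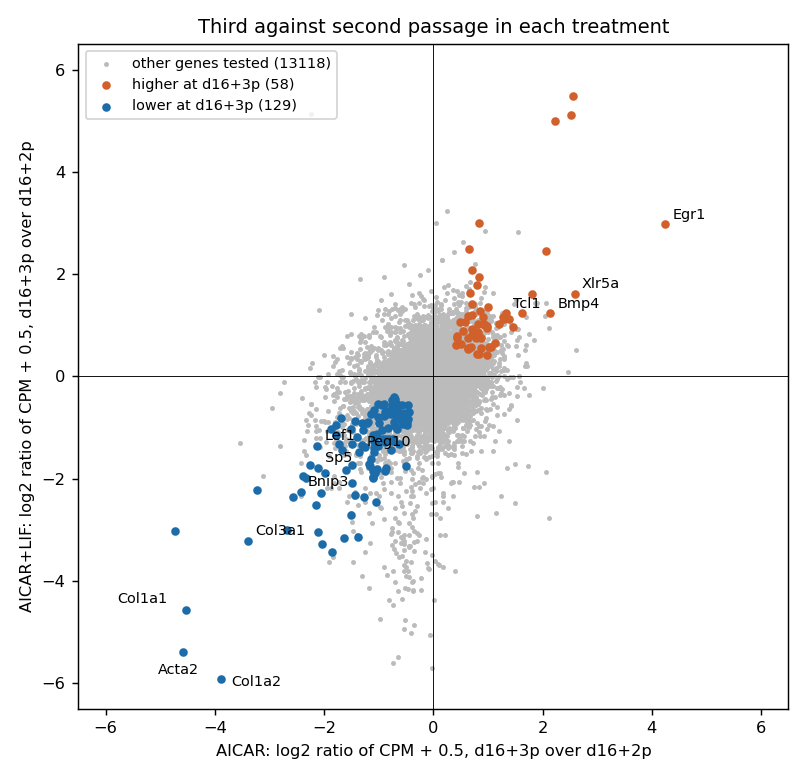
Log2 ratio of CPM + 0.5 at d16+3p over d16+2p for each tested gene in the AICAR pair (x axis) and in the AICAR+LIF pair (y axis), with the 58 genes called higher in orange and the 129 called lower in blue. Called genes lie in the upper right and lower left quadrants, Egr1 at 4.25 and 2.98, and Col1a1, Col1a2 and Acta2 at the lower left.

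Collagen and contractile genes, which fibroblasts and smooth muscle cells express strongly, were among the largest falls. Of 30 listed fibroblast and feeder markers, 18 passed the filter on low counts, 7 fell and 0 rose, with a median log2 fold change of -0.66 over the 18. The 4 with the smallest p were Col1a1, Acta2, Col1a2 and Col3a1. Col1a1 (chromosome 11, 94936224 to 94953042 on GRCm38), a chain of type I collagen, was at 36.1 and 44.8 CPM at d16+2p and at 1.09 and 1.41 CPM at d16+3p. The 2 passages did not overlap, and the fitted log2 fold change was -4.98 ± 0.34 (SE, adjusted p = 1.43e-04). As counts, Col1a1 had 122 and 118 reads at d16+2p and 3 and 4 at d16+3p, a summed ratio of 31.9 with a 95% interval of 15.3 to 80.3 that covers counting error only. It was called in all 15 alternative fits that tested it.

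Col1a2, the partner chain of type I collagen, went from 78 and 78 counts at d16+2p to 3 and 0 at d16+3p, a ratio of 48.4 (95% interval 16.27 to 237). Acta2, smooth muscle actin, went from 68 and 54 counts to 1 and 0, a ratio of 114 (20.02 to 4525). Col3a1, the type III collagen of loose connective tissue, went from 42 and 28 counts to 2 and 2, a ratio of 16.3 (6.09 to 61.5). At d16+3p all 3 genes were thus at or below the 3 counts taken as the floor, in both treatments. The other 3 members that fell, named after their values were seen, were the actin-binding Tagln (adjusted p = 0.0177) and Cald1 (adjusted p = 0.00938) and the matrix protein Thbs1 (adjusted p = 0.0288). Cald1 did not approach the floor, with 65.1 and 79.1 CPM at d16+2p and 30.5 and 32.7 CPM at d16+3p. Flnc, a filamin of muscle that crosslinks actin, fell from 26.03 and 27.4 CPM to 10.5 and 4.92 CPM (log2 fold change -1.81 ± 0.31, adjusted p = 0.0187).

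The other 11 tested members were not called. Vim, an intermediate filament protein, had 392 and 405 CPM at d16+2p and 378 and 420 CPM at d16+3p (log2 fold change -0.01 ± 0.11, adjusted p = 0.98). Fibronectin (Fn1), named after its values were seen, was at 1610 and 1509 CPM at d16+2p and at 1390 and 1938 CPM at d16+3p (adjusted p = 0.87). Over the 10 defining fibroblast or feeder markers (Col1a1, Col1a2, Col3a1, Dcn, Lum, Postn, Thy1, Twist2, Prrx1 and Pdgfrb), the summed level was 83.1 and 91.6 CPM at d16+2p and 9.44 and 6.68 CPM at d16+3p. The same sum was 16706 and 18804 CPM in the d16 cultures before passaging, between 12.8 and 16.5 CPM in the 5 d16+10p Oct4GIP libraries and 16.8 CPM in naive mESCs. Between 1 and 2 of the 10 markers were at 0 at d16+2p, and 4 and 5 at d16+3p, with Twist2 at 0 in all 4 libraries. Most of the sum at d16+2p came from Col1a1, Col1a2 and Col3a1. Each of the other markers had at most 15 counts in any of the 4 libraries, and Thy1 was higher at d16+3p in both pairs (7 and 2 counts against 9 and 4). The part that fibroblast or feeder cells play in the other changes between the passages was not tested.

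Defining markers of other lineages were low at both passages, with summed levels between 4.92 and 15.1 CPM for 4 of primitive endoderm, between 1.76 and 7.99 CPM for 3 of trophoblast and between 6.21 and 8.78 CPM for 3 of neural cells. Longer lists also hold genes that these cells express, such as the neural Stmn2, at 221 and 232 CPM at d16+2p and 262 and 332 CPM at d16+3p. Of 14 primitive endoderm genes 9 were tested, and 1 fell: Lamb1, a laminin chain, from 64.8 and 61.9 CPM to 34.5 and 36.2 CPM (log2 fold change -0.85 ± 0.17, adjusted p = 0.0372). All 9 had a log2 fold change below 0, with a median of -0.80 (-0.44 without AICAR+LIF d16+3p), beside 0.00 over all tested genes. Gata6, a master factor of primitive endoderm, had 6.51 and 5.70 CPM at d16+2p and 1.09 and 2.46 CPM at d16+3p (adjusted p = 0.146). Of 11 trophoblast genes 8 were tested and 0 were called (3 lower at an unadjusted p under 0.05). Cdx2, the trophectoderm factor that Wnt signaling also induces, had 18 and 11 counts at d16+2p and 0 and 4 at d16+3p (adjusted p = 0.135). Among 6 tested of 14 neural genes and 3 tested of 18 mesendoderm genes 0 were called, with 1 higher and 1 lower at an unadjusted p under 0.05. Here and in each gene list below with a count of 0 calls, DESeq2 and limma voom called 0 members as well, except for 1 mitochondrially encoded transcript that limma voom called.

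**Figure D2:**
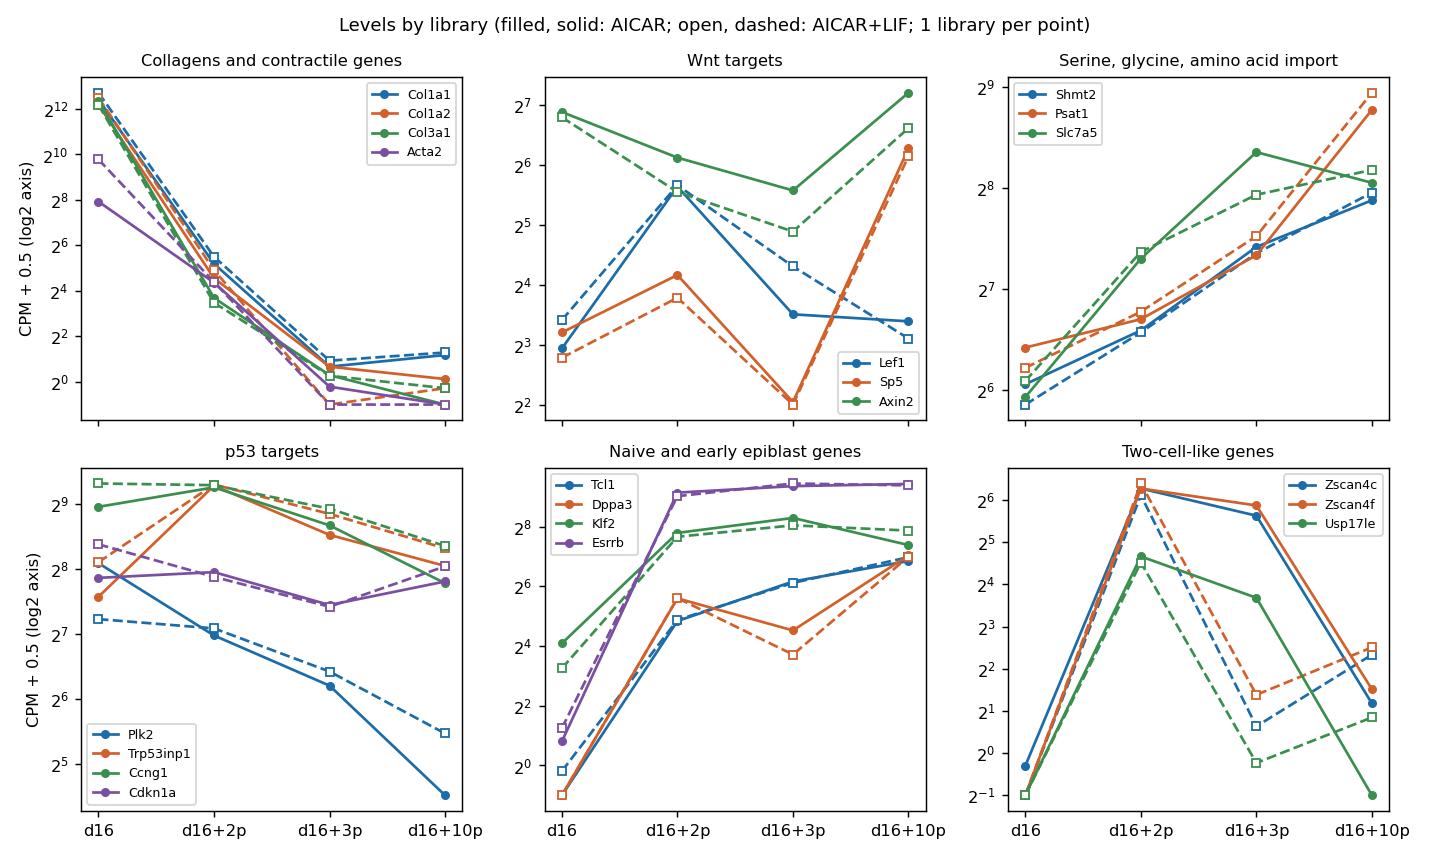
Levels of 21 genes in 6 panels (CPM + 0.5, log2 axis) before passaging (d16) and at d16+2p, d16+3p and d16+10p of Oct4GIP, with 1 library per point, AICAR filled and solid, AICAR+LIF open and dashed. Col1a1 falls from 5472 and 6733 CPM at d16 to 1.09 and 1.41 CPM at d16+3p, whereas Sp5 dips at d16+3p and lies at 77.1 and 70.4 CPM at d16+10p.

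Naive pluripotency factors were at a high level at both passages. All 20 listed were tested, 1 rose and 1 fell, and 15 had a log2 fold change above 0 with a median of 0.14 (0.08 without AICAR d16+3p, 0.23 without AICAR+LIF d16+3p). Tcl1, a coactivator of the kinase AKT that is enriched in naive cells, rose from 28.1 and 28.9 CPM to 71.2 and 68.9 CPM, beside 74.5 CPM in naive mESCs and 115 and 126 CPM at d16+10p (log2 fold change 1.29 ± 0.17, adjusted p = 0.00602). Its d16+3p libraries were both above its d16+2p libraries, and it was called in 10 of 16 alternative fits. Dppa3 (Stella), which protects the maternal genome from demethylation in the zygote, fell from 47.9 and 48.3 CPM to 22.5 and 12.7 CPM (log2 fold change -1.48 ± 0.23, adjusted p = 0.013). It was at 47.8 CPM in naive mESCs, the level of d16+2p, and at 131 and 127 CPM at d16+10p.

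Esrrb, an orphan nuclear receptor of the naive network, had 564 and 520 CPM at d16+2p and 656 and 698 CPM at d16+3p (log2 fold change 0.31 ± 0.11, adjusted p = 0.204). Nanog had 453 and 485 CPM against 596 and 484 CPM (adjusted p = 0.502), and Tfcp2l1 749 and 715 CPM against 700 and 820 CPM (adjusted p = 0.907). Klf2, which MEK inhibition protects from degradation, had 221 and 202 CPM against 313 and 264 CPM (adjusted p = 0.0952), and it lies on chromosome 8. Zfp42 (Rex1), also on chromosome 8, had 465 and 468 CPM against 698 and 476 CPM, so that its difference lay in the AICAR pair. Among 13 core factors shared by naive and primed cells 0 were called, 10 with a log2 fold change above 0 and 4 higher and 1 lower at an unadjusted p under 0.05. Pou5f1 (Oct4) had 952 and 953 CPM at d16+2p and 1087 and 1188 CPM at d16+3p (log2 fold change 0.24 ± 0.11, adjusted p = 0.298), and Sox2 330 and 320 CPM against 278 and 273 CPM (adjusted p = 0.31).

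Of 20 listed genes of the formative and primed epiblast 14 were tested and 0 were called (1 higher and 4 lower at an unadjusted p under 0.05), 9 with a log2 fold change below 0 (the median was -0.24, and -0.04 without AICAR+LIF d16+3p). Otx2, the factor that drives exit from the naive state, had 41 and 50 counts at d16+2p and 23 and 14 at d16+3p (log2 fold change -1.21 ± 0.38, adjusted p = 0.149). Fgf5 had between 0.363 and 3.04 CPM in the 4 libraries and was not tested. Among 12 DNA methylation writers and erasers 0 were called (3 higher and 1 lower at an unadjusted p under 0.05). The de novo DNA methyltransferase Dnmt3b had 531 and 568 CPM at d16+2p and 419 and 510 CPM at d16+3p (adjusted p = 0.286), against 41.9 CPM in naive mESCs and 238 CPM in primed mEpiSCs. Its cofactor Dnmt3l was at 330 and 317 CPM against 366 and 353 CPM (adjusted p = 0.583), with 3.10 CPM in naive mESCs.

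Similarity to the naive mESC library was taken as Pearson's r of log2 CPM across all 34489 genes, here with 0.5 added to each count and without TMM factors. It was 0.944 and 0.942 at d16+2p and 0.949 and 0.946 at d16+3p, a correlation across genes, which are not independent replicates. Both d16+3p values were above both d16+2p values and below the range of 0.955 to 0.958 at d16+10p. With 2 libraries against 2, an exact permutation test cannot give a p below 0.33, so the difference of 0.00448 between the passage means is given as a value. Primed Oct4GIP mEpiSCs had 0.886 and the AICAR d16 culture 0.822.

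Of 21 listed germline genes 15 were tested, 0 rose and 1 fell, and 8 had a log2 fold change above 0 with a median of 0.08. Dazl, an RNA-binding protein of germ cells, fell from 125 and 140 CPM to 74.1 and 94.5 CPM (log2 fold change -0.67 ± 0.14, adjusted p = 0.0419). Its level was 86.9 CPM in naive mESCs and 215 and 116 CPM at d16+10p. Mael had 5.92 and 6.46 CPM against 11.3 and 19.7 CPM (log2 fold change 1.26 ± 0.34, adjusted p = 0.0988). Outside the list, Rec8, the meiotic cohesin subunit, fell from 25.7 and 27.4 CPM to 5.81 and 5.27 CPM (log2 fold change -2.26 ± 0.29, adjusted p = 0.00495). Naive mESCs had 56.8 CPM of Rec8 and the d16+10p libraries 53.6 and 29.5 CPM. Nlrp4f, of an oocyte-enriched gene family, fell from 50.3 and 48.3 CPM to 24.0 and 8.43 CPM (adjusted p = 0.0186). Xlr5a, of an X-linked multicopy family, rose from 2.37 and 4.94 CPM to 16.7 and 16.2 CPM (log2 fold change 2.197 ± 0.39, adjusted p = 0.0208). Of its read-length words, 75.9% occur in another gene as well, so its value may include reads of relatives.

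Most tested genes of the two-cell-like state, a transient condition of naive cultures that resembles the early cleavage embryo, were near 0 in AICAR+LIF d16+3p and not in AICAR d16+3p. Of 12 listed 10 were in the table, 7 were tested and 0 were called (6 lower at an unadjusted p under 0.05). Zscan4c, a guardian of telomeres that defines the state, had 76.9 and 68.8 CPM at d16+2p, 49.0 CPM in AICAR d16+3p and 1.05 CPM in AICAR+LIF d16+3p (log2 fold change -1.96 ± 0.61, adjusted p = 0.146). Usp17le, a deubiquitinase-like gene, had 24.9 and 22.4 CPM at d16+2p, 12.3 CPM in AICAR d16+3p and 0.351 CPM, or 1 count, in AICAR+LIF d16+3p. Gm4340 had 49.1 and 51.3 CPM, 34.1 CPM and 1.41 CPM in the same order. The median of the 7 genes was -0.52 in the AICAR pair and -4.76 in the AICAR+LIF pair, and the fitted median of -1.78 became -5.23 without AICAR d16+3p and -0.56 without AICAR+LIF d16+3p. In naive mESCs Zscan4c was at 12.4 CPM. Of the read-length words of Gm4340 96.5% and of Zscan4c 77.5% occur in another gene, so the level of these copies is uncertain, whereas Usp17le shares 14.1%. With 1 library a treatment the difference between the treatments was not tested.

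Among the pathways that 2iL itself addresses, Wnt signaling was represented by 15 targets. Of these 10 were tested, 2 fell and 0 rose, and the median log2 fold change was -0.51 (-0.29 without AICAR d16+2p, -0.88 without AICAR d16+3p). Of the 10, 4 had a log2 fold change above 0. Lef1, a DNA-binding partner of beta-catenin, fell from 49.4 and 50.2 CPM to 10.9 and 19.3 CPM (log2 fold change -1.75 ± 0.23, adjusted p = 0.00598), toward the 8.999 CPM of naive mESCs. Sp5, a zinc finger factor that beta-catenin switches on directly, fell from 17.5 and 13.3 CPM to 3.63 and 3.51 CPM (log2 fold change -2.10 ± 0.37, adjusted p = 0.0198), away from the 55.5 CPM of naive mESCs. At d16+10p Lef1 was at 10.0 and 8.11 CPM and Sp5 at 77.1 and 70.4 CPM, so the 2 genes fell together between the second and the third passage and lay far apart later. Axin2, a feedback inhibitor of the pathway, had 69.2 and 46.4 CPM at d16+2p and 47.2 and 29.2 CPM at d16+3p (log2 fold change -0.62 ± 0.17, adjusted p = 0.108). Myc, on chromosome 15, went the other way, with 18.0 and 16.3 CPM against 30.9 and 38.7 CPM (log2 fold change 0.99 ± 0.22, adjusted p = 0.055). Lef1 was called in 10 and Sp5 in 8 of 16 alternative fits.

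The promoter of Sp5 is printed because this gene had the largest fall of the Wnt list that passed the test. The window (chr2:70474673-70474972, GRCm38.p6, plus strand, RefSeq) runs from 250 bases before to 50 bases after the annotated start, and capitals mark the word CTTTGA of TCF/LEF sites, searched on both strands.
Sp5: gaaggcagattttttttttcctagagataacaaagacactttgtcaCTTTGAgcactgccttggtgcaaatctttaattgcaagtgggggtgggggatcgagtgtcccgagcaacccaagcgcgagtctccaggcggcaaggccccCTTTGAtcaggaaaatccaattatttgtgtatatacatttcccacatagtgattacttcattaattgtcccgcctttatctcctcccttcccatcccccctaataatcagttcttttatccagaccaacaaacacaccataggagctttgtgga
The 2 matches begin 204 and 104 bases before the start. The same word was found in 1 of 4 windows of Lef1, in 0 of the 1 window of Axin2, and in 16.0% of all 32851 promoter windows of this length. A match is a description of the sequence, not of binding.

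Of 20 listed ERK feedback and target genes 18 were tested, 1 rose and 0 fell, and the 1 was Egr1. Egr1 (chromosome 18) rose from 5 and 6 counts at d16+2p to 102 and 61 counts at d16+3p, or from 1.48 and 2.28 CPM to 37.0 and 21.4 CPM (log2 fold change 3.96 ± 0.39, adjusted p = 0.00117). Naive mESCs had 174 CPM of Egr1, primed Oct4GIP mEpiSCs 2.94 CPM and the AICAR and AICAR+LIF d16 cultures 470 and 534 CPM. At d16+10p Egr1 was at 1.18 CPM in AICAR and 88.6 CPM in AICAR+LIF, so its level varied widely between libraries of one passage. Fos, an immediate early gene induced with it, had 6 and 2 counts at d16+2p and 17 and 24 counts at d16+3p (adjusted p = 0.0681), and its relative Fosb, named after its values were seen, had 0 counts at d16+2p and 6.54 and 3.51 CPM at d16+3p. Spry4, an ERK feedback inhibitor, had 26.6 and 29.6 CPM against 46.5 and 44.6 CPM (adjusted p = 0.1), and Dusp6, the ERK phosphatase, 14.5 and 21.3 CPM against 16.7 and 19.3 CPM (adjusted p = 0.986). Of 13 immediate early and heat shock genes 10 were tested and only Egr1 was called.

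For LIF and STAT3 genes, 14 of 15 were tested and 1 rose. Pim3, a survival kinase induced by STAT3, had 47.0 and 39.1 CPM at d16+2p, 74.8 CPM in AICAR d16+3p and 122 CPM in AICAR+LIF d16+3p (log2 fold change 1.13 ± 0.21, adjusted p = 0.0281), and it lies on chromosome 15. Socs3, the feedback inhibitor of the pathway named after its values were seen, had 51.8 and 45.6 CPM against 58.1 and 66.1 CPM (adjusted p = 0.377). Among 13 tested of 14 Nodal and Activin genes 1 rose: Lefty2, a secreted Nodal antagonist and target, from 77.5 and 76.4 CPM to 137 and 157 CPM (log2 fold change 0.91 ± 0.14, adjusted p = 0.0119). Naive mESCs had 290 CPM of Lefty2 and the d16+10p libraries 105 and 58.4 CPM. Among 11 tested of 15 BMP and Id genes 1 rose: Bmp4, the BMP ligand, from 18 and 15 counts to 69 and 40 counts (log2 fold change 1.80 ± 0.34, adjusted p = 0.0286), a level of 25.1 and 14.1 CPM beside 20.8 CPM in naive mESCs. At d16+10p Bmp4 was at 2.35 and 1.62 CPM, below its d16+2p level of 5.33 and 5.70 CPM. Within the BMP and Id list, 8 of the 11 had a log2 fold change below 0. The median was -0.25 (0.09 without AICAR+LIF d16+3p). At an unadjusted p under 0.05, 2 were higher, Bmp4 and Id3 (log2 fold change 0.48), and 2 were lower, Id2 (-1.88) and Bmpr2 (-0.69). Each of these had the same direction in both pairs, and only Bmp4 was called. Sfrp1, a secreted Wnt antagonist on chromosome 8, rose from 15.7 and 20.9 CPM to 41.8 and 46.4 CPM (adjusted p = 0.0137). Tle5, a short Groucho family corepressor, rose from 61.8 and 52.4 CPM to 151 and 118 CPM (log2 fold change 1.22 ± 0.14, adjusted p = 0.00363).

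Among serine, glycine and amino acid genes 3 rose in both treatments. Of 20 listed genes of the integrated stress response, the ATF4 program that amino acid shortage triggers, 15 were tested, 3 rose and 0 fell, with a median log2 fold change of 0.44. Of 16 threonine, glycine and one-carbon genes all 16 were tested, 2 rose and 0 fell, and 14 had a log2 fold change above 0 with a median of 0.34. Psat1 and Shmt2 belong to both lists. Shmt2, the mitochondrial enzyme that splits serine into glycine and a one-carbon unit, rose from 95.6 and 94.3 CPM to 170 and 163 CPM (log2 fold change 0.80 ± 0.13, adjusted p = 0.0145). Psat1, which makes serine, rose from 103 and 109 CPM to 160 and 183 CPM (log2 fold change 0.68 ± 0.13, adjusted p = 0.0281). Slc7a5, the importer of large neutral amino acids, rose from 157 and 164 CPM to 326 and 244 CPM (adjusted p = 0.0177), and it lies on chromosome 8. Mthfd2 had 22.2 and 29.3 CPM against 46.1 and 43.2 CPM (adjusted p = 0.0818) and Mthfd1l 65.4 and 70.3 CPM against 101 and 108 CPM (adjusted p = 0.0665), both enzymes of the mitochondrial folate cycle. Atf4 itself was at 134 and 144 CPM, 125 CPM in AICAR d16+3p and 270 CPM in AICAR+LIF d16+3p, and its gene lies on chromosome 15. Tdh, the threonine dehydrogenase of mouse naive cells, had 633 and 614 CPM against 673 and 734 CPM (adjusted p = 0.517). Atf4 and Tdh were named after their values were seen.

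Nuclear-encoded subunits of oxidative phosphorylation, the respiratory chain of mitochondria, were slightly higher at the median. All 23 were tested, 0 were called (9 higher at an unadjusted p under 0.05) and 22 had a log2 fold change above 0, with a median of 0.25 beside 0.00 over all genes and medians of 0.25 and 0.26 in the AICAR and AICAR+LIF pairs. Cox5a, a subunit of cytochrome c oxidase, had 174 and 156 CPM against 243 and 240 CPM (log2 fold change 0.54 ± 0.12, adjusted p = 0.0534). Among 13 mitochondrially encoded transcripts 0 were called (4 higher at an unadjusted p under 0.05). Of 19 glycolysis genes 1 rose: Pfkp, a phosphofructokinase, from 141 and 155 CPM to 201 and 240 CPM (log2 fold change 0.56 ± 0.12, adjusted p = 0.0487). Slc2a3, a glucose transporter, had 956 and 955 CPM against 776 and 664 CPM (adjusted p = 0.0912). Of 15 hypoxia genes 12 were tested and 1 fell: Bnip3, a mitophagy receptor, from 13.9 and 22.0 CPM to 2.18 and 4.22 CPM (log2 fold change -2.49 ± 0.36, adjusted p = 0.00976). Lamp2, a lysosomal membrane protein, fell from 98.2 and 85.5 CPM to 60.6 and 50.2 CPM (adjusted p = 0.0399), the only one of 15 tested autophagy and lysosome genes to be called. Among 21 cholesterol synthesis genes 0 were called (5 higher at an unadjusted p under 0.05), and likewise among 16 tested of 18 AMPK and p38 genes (2 higher). Among 8 tested of 14 genes of MHC class I presentation 0 passed either threshold.

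**Figure D3:**
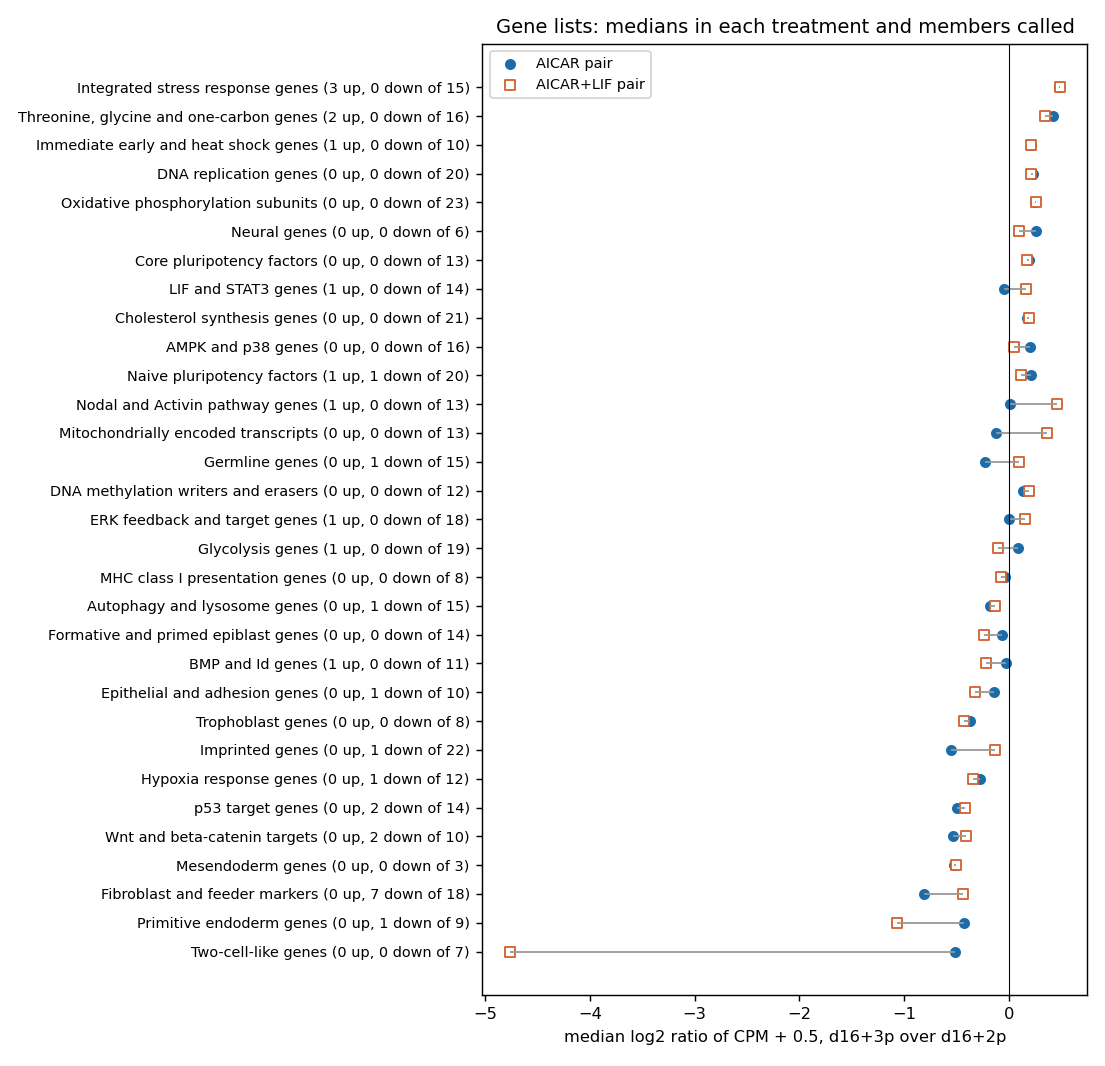
Median log2 ratio of CPM + 0.5 at d16+3p over d16+2p over the tested members of each of the 31 gene lists, filled circles for the AICAR pair and open squares for the AICAR+LIF pair, with the number of members called in each direction beside the list name. The widest gap between the pairs is that of two-cell-like genes, at -0.52 and -4.76.

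Targets of p53 were mostly lower and DNA replication genes mostly higher at d16+3p, few by a margin that passed the test. Of 15 p53 targets 14 were tested, 2 fell and 0 rose, and 12 had a log2 fold change below 0 with a median of -0.49. Plk2, a polo-like kinase induced by p53, fell from 126 and 136 CPM to 73.4 and 85.4 CPM (log2 fold change -0.73 ± 0.14, adjusted p = 0.0281). Trp53inp1, a stress-induced p53 cofactor, fell from 625 and 633 CPM to 369 and 462 CPM (log2 fold change -0.62 ± 0.12, adjusted p = 0.0288). Ccng1, a p53-induced cyclin, had 614 and 629 CPM against 409 and 489 CPM (adjusted p = 0.0632), and Btg2, an antiproliferative gene, 59.5 and 56.6 CPM against 31.2 and 37.9 CPM (adjusted p = 0.067). For all 4 the d16+3p libraries were both below the d16+2p libraries. They were named for the smallest p of the list, which favors such a separation, and its share over all tested genes was not computed. Of 20 DNA replication genes 0 were called (11 higher at an unadjusted p under 0.05) and 19 had a log2 fold change above 0 (median 0.27). Over all 13305 tested genes, 2103 had an unadjusted p under 0.05 in either direction. Pold1, the catalytic subunit of DNA polymerase delta, had 123 and 131 CPM against 170 and 162 CPM (adjusted p = 0.171), and Gins2 of the replicative helicase, on chromosome 8, had 31.4 and 28.5 CPM against 64.6 and 40.4 CPM (adjusted p = 0.0818).

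Of 26 imprinted genes, which are expressed from 1 parental allele, 22 were tested and 1 fell. Peg10, a paternally expressed gene derived from a retrotransposon, fell from 776 and 643 CPM to 303 and 231 CPM (log2 fold change -1.43 ± 0.11, adjusted p = 3.26e-04). It was called in 12 of 16 alternative fits, and its level was 38.3 and 43.5 CPM at d16+10p. Its neighbor Sgce, which shares the imprinted domain, had 6.21 and 12.9 CPM against 2.18 and 3.16 CPM (adjusted p = 0.0759). H19, the maternally expressed non-coding RNA, had 199 and 173 CPM at d16+2p, 134 CPM in AICAR d16+3p and 29.2 CPM in AICAR+LIF d16+3p (adjusted p = 0.0577), with 1.24 CPM in naive mESCs. Of the 22 genes, 17 had a log2 fold change below 0 with a median of -0.42, which was -0.16 without AICAR d16+3p.

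Among the other genes of the largest changes, Pcolce, an enhancer of collagen processing, rose from 28.7 and 31.5 CPM to 89.3 and 74.8 CPM (log2 fold change 1.44 ± 0.18, adjusted p = 0.00466), in the opposite direction to the collagens. Crip1, a small LIM domain protein, rose from 22 and 22 counts to 66 and 76 counts (adjusted p = 0.013). Serinc5, a membrane protein of the serine incorporator family, fell from 37.3 and 37.6 CPM to 9.08 and 9.84 CPM (log2 fold change -1.99 ± 0.23, adjusted p = 0.00363). Gja1, the gap junction protein connexin 43 and the only call among 10 tested of 14 epithelial and adhesion genes, fell from 271 and 239 CPM to 134 and 163 CPM (log2 fold change -0.79 ± 0.14, adjusted p = 0.0196), and its level was 560 CPM in primed Oct4GIP mEpiSCs and 4.34 CPM in naive mESCs. Also lower were Lhfpl2, Akr1cl, Trgc1, Slc23a1 (an ascorbate transporter), Rab11fip5 and Anxa3, with fitted log2 fold changes from -1.82 to -2.15. Parvb (chromosome 15) and Kifc3 and Ssbp4 (chromosome 8) rose by 1.29, 1.26 and 1.22. Parvb, an actin-linked focal adhesion protein, had 61.8 and 58.5 CPM at d16+2p, 107 CPM in AICAR d16+3p and 204 CPM in AICAR+LIF d16+3p.

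In the remaining rises among the 15 largest, 1 library was far below the others. Lars2, the mitochondrial leucyl-tRNA synthetase, had 3150 counts in AICAR d16+2p, 585 in AICAR+LIF d16+2p, 4020 in AICAR d16+3p and 3578 in AICAR+LIF d16+3p. The non-coding Gm14236, Mir6240 and Gm25732 were likewise lowest in AICAR+LIF d16+2p, at 16.7, 12.9 and 12.5 CPM beside 76.6, 45.0 and 38.2 CPM in AICAR d16+2p. For all 4, both d16+2p libraries were below both d16+3p libraries, which their selection as rises in both pairs favors. Without AICAR+LIF d16+2p, a fit in which only Col1a1 was called, the log2 fold change of Lars2 was 0.53 in place of 1.53 and that of Gm14236 0.82 in place of 1.73. By class, 51 protein-coding genes rose and 99 fell of 11107 tested (1.35%), 1 long non-coding or unconfirmed gene rose and 11 fell of 460 (2.61%), 1 pseudogene rose and 16 fell of 1534 (1.11%), and 5 small or mitochondrial RNAs rose and 2 fell of 20. Of the 129 genes that fell, 15.5% share at least 50% of their read-length words with another gene, against 7.83% of all tested genes, and the counts of such genes cannot be assigned to 1 copy with certainty.

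Genes of chromosome 8 and chromosome 15 were displaced as blocks, each in 1 library. Among 552 chromosome 8 genes whose mean level reached 10 CPM, 88.4% had a ratio above 0 in the AICAR pair (median 0.48) and 51.1% in the AICAR+LIF pair (median 0.01). Among 400 chromosome 15 genes, 90.5% were above 0 in the AICAR+LIF pair (median 0.52) and 56.8% in the AICAR pair (median 0.04). The medians of the other 18 chromosomes lay between -0.03 and 0.08 in the AICAR pair and between -0.07 and 0.08 in the AICAR+LIF pair. Between the 2 d16+3p libraries, chromosome 8 was 0.46 lower and chromosome 15 0.54 higher in AICAR+LIF, and between the 2 d16+2p libraries neither differed by more than 0.01. Of the 58 genes that rose, 9 were on chromosome 8 and 9 on chromosome 15, out of 679 and 509 tested. In other libraries, relative to AICAR d16+2p, chromosome 8 had a median of 0.42 in naive mESCs and 0.45 in AICAR+LIF d16+10p of the 129/MSM line. It was between -0.04 and 0.11 in the d16+10p libraries of Oct4GIP and at -0.12 in primed Oct4GIP mEpiSCs. Chromosome 15 had 0.38, 0.36 and 0.44 in the AICAR, AICAR+LIF and A769662 libraries at d16+10p of Oct4GIP. Its median was 0.19 in A769662+LIF and -0.002 in metformin+LIF at that passage, and 0.25 in primed Oct4GIP mEpiSCs. Without the genes of chromosomes 8 and 15 and of a part of chromosome 3, an alternative added after the data were seen, 373 of 12053 genes were called.

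**Figure D4:**
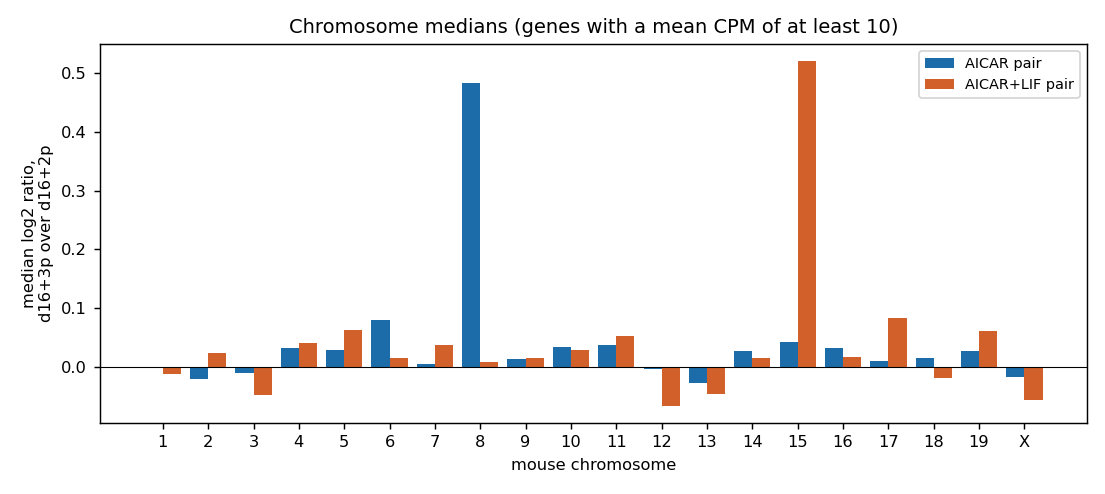
Median log2 ratio of CPM + 0.5 at d16+3p over d16+2p over the genes of each mouse chromosome whose mean level reached 10 CPM, blue bars for the AICAR pair and orange bars for the AICAR+LIF pair. Chromosome 8 stands out at 0.48 in the AICAR pair and chromosome 15 at 0.52 in the AICAR+LIF pair.

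A run of neighboring genes on chromosome 3, chosen with its segment limits after the values were seen, contained 6 of the 129 falls. The limits lie where the values change, so the counts of genes above or below 0 in a segment are no separate evidence. The share of all tested genes lower in both pairs was not computed. The first segment of the run held 12 genes from Mrpl9 to Pip5k1a (chromosome 3, 94443318 to 95106930), all lower at d16+3p in both treatments. Their medians were -0.43 in the AICAR pair and -0.74 in the AICAR+LIF pair. The 6 that passed the test were Mrpl9, Snx27, Tuft1, Cgn, Pogz and Rfx5. Mrpl9, a mitochondrial ribosomal protein, went from 511 and 529 CPM to 153 and 210 CPM (log2 fold change -1.54 ± 0.13, adjusted p = 4.47e-04), against 41.3 CPM in naive mESCs. Snx27, an endosomal sorting protein, went from 974 and 981 CPM to 264 and 483 CPM (adjusted p = 0.00363), against 94.6 CPM in naive mESCs. Tuft1, which encodes tuftelin, fell from 23.7 and 23.9 CPM to 5.08 and 2.46 CPM (log2 fold change -2.67 ± 0.35, adjusted p = 0.00597). At d16+2p these 12 genes stood 2.16 and 2.17 above naive mESCs, which are of another line, on the log2 scale at the median. Primed Oct4GIP mEpiSCs, the starting line, were also above naive mESCs, with 186 CPM of Mrpl9, 691 CPM of Snx27 and 109 CPM of Tuft1. Metformin+LIF d16+10p had 544, 1129 and 13.7 CPM in the same order. A segment median for primed mEpiSCs was not computed.

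The next segment, 30 genes from Vps72 to Bola1 (95111022 to 96219709), separated the treatments at d16+3p. Its median was -0.41 in the AICAR pair, with 4 of 30 genes above 0, and 0.10 in the AICAR+LIF pair, with 22 of 30 above 0. AICAR+LIF d16+3p was above AICAR d16+3p for 28 of the 30 genes, by a median of 0.76, and 0 of them were called between the passages. Relative to naive mESCs the segment stood at 1.77 and 1.86 at d16+2p, 1.22 and 1.93 at d16+3p, and 0.55 and 1.93 at d16+10p, in AICAR and AICAR+LIF in that order. The 8 genes beyond it, from Txnip to Gpr89, had medians between -0.19 and 0.23 relative to naive mESCs in the 4 libraries. Copy number was not measured here.

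**Figure D5:**
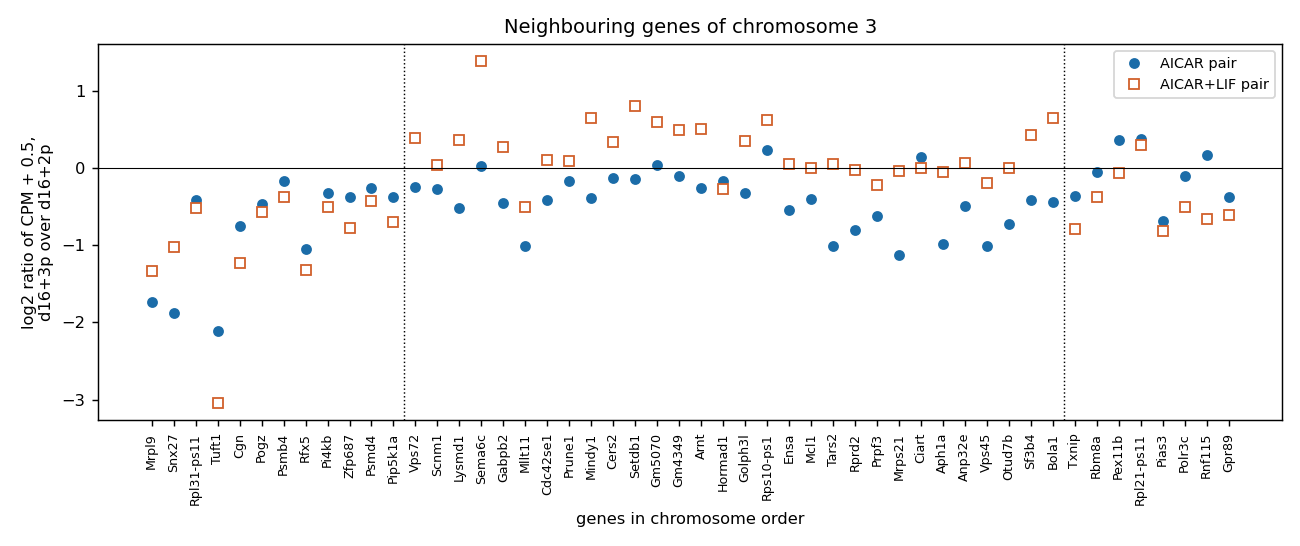
Log2 ratio of CPM + 0.5 at d16+3p over d16+2p for 50 neighboring genes of chromosome 3 in chromosome order, filled circles for the AICAR pair and open squares for the AICAR+LIF pair, with dotted lines between the 3 segments. The segment limits were set after the values were seen. In the first segment both pairs lie below 0 for all 12 genes. In the second 22 of 30 open squares lie above 0 against 4 of 30 filled circles.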

How the data were processed

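RNA was sequenced as stranded poly(A)-selected libraries (79-base single reads). Per the study's methods, the authors aligned reads with Bowtie2 2.2.5 to Ensembl release 100 transcripts of GRCm38, kept those with a mapping quality of at least 1, and deposited raw counts per gene. No normalization was applied to them, and reads that near-identical genes share can be split among copies.

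Counts were analysed in R 4.3.3 with edgeR 4.0.16: filterByExpr, TMM factors and the quasi-likelihood test of passage with treatment as a block over the 4 libraries, with Benjamini-Hochberg adjustment over 13305 genes and a threshold of 0.05. This fit had 1 residual degree of freedom. SE is the absolute log2 fold change over the square root of F. Levels are CPM with TMM factors of all 22 libraries, and ratios within a pair use log2(CPM + 0.5). In data simulated for this comparison (13072 genes), the test recovered 78 of 100 genes given a log2 change of 1. It recovered 98 of 100 given a log2 change of 2, and called 8 that had been left alone. Whether these rates hold for the real libraries was not tested. Those libraries hold a nearly alike pair and shifts of whole chromosomes, so the simulated rates give no error rate for the genes called.

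The comparison, the 31 gene lists and the 29 fixed genes were chosen with earlier results of these data known. Named were the 15 genes per direction with the largest absolute change among calls whose log2 CPM averaged 3 or more and that had 1 direction in both pairs, the fixed genes, and up to 4 genes per list with the smallest p. Other genes are said to be named after their values were seen. Alternatives were no block, other scalings and filters, DESeq2 1.42.0, limma voom (limma 3.58.1), more libraries, thinning and each library left out. The summed d16+2p library, the fit without chromosomes 8, 15 and part of 3, and leaving out libraries from the similarity to naive cells were added after the data were seen. Gene positions and shared read-length words came from a GRCm38 annotation and its transcripts.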

Additional observations from a re-analysis of the deposited data

Results flagged for a closer look

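For transcripts encoded by mitochondrial DNA, the medians of the 2 treatment pairs had opposite signs. The median log2 ratio of the 13 transcripts at d16+3p over d16+2p was -0.13 in the AICAR pair and 0.36 in the AICAR+LIF pair. Of the 13, 6 were higher in both pairs and 1 was lower in both. With 1 library per treatment and passage, the difference between the treatments was not tested.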

How the results depend on the processing

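All genes called that an alternative tested kept their direction in each of the 16 alternative fits, but the number of calls moved widely. The count of 187 (58 higher, 129 lower) was 41 (9 and 32) with no replicate block, 83 (11 and 72) without TMM factors, 29 (6 and 23) in DESeq2, 813 (294 and 519) with no filter, 305 (92 and 213) with at least 10 counts in each library, 63 (11 and 52) after thinning, and 1 (0 and 1) both with 6 Oct4GIP libraries and with 11 reverted libraries with no replicate block, where 1569 and 1369 genes had an unadjusted p under 0.05. With the d16+2p libraries summed it was 6 (1 and 5), and without chromosomes 8, 15 and part of 3 it was 373 (116 and 257), both added after the data were seen. Leaving out 1 library gave 1 to 2435 calls, 0 to 1250 higher and 1 to 1185 lower, and the high counts came from the fits that kept both d16+2p libraries, the pair that differed least. DESeq2 size factors in edgeR (185) and limma voom (170, of which 164 shared) stayed close. The share of calls that were higher was 31.0%, against 13.3% without TMM factors, where the median of all genes was -0.05. The shared replicate number is only the treatment: the AICAR+LIF minus AICAR differences at the 2 passages had r = -0.00334 over 13305 genes. Since the d16+2p libraries differed by little more than sampling noise, this r cannot show whether libraries of one treatment deviate together.

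For single named genes a change of sign was counted only where the main fit or the alternative called the gene. By that rule 1 turned: Tubb3, on chromosome 8 and at -0.26, was -0.84 without d16+3p replicate 1 and 0.28 without d16+3p replicate 2. Sign changes of genes called in neither were not counted. Among these, Pecam1 was at -0.31 in the AICAR pair and 0.13 in the AICAR+LIF pair, and Cdh1, on chromosome 8, at 0.74 and -0.09. The difference in similarity to naive mESCs was 0.0165 over the genes kept by the filter and 0.00321 to 0.00574 with 1 library left out. Among other list medians that moved by over 1.5 times were fibroblast markers at -0.06 with at least 10 counts in each library, which removes the genes that fell to the floor, two-cell-like genes at 0.06 with that filter, hypoxia genes at -0.29 without AICAR d16+3p, trophoblast genes at -0.63 without it, BMP genes at 0.09 and cholesterol genes at 0.10 without AICAR+LIF d16+3p, and naive factors at 0.09 without TMM factors. Other causes of these movements were not tested. Levels below the floor of 3 counts in a library (0.888 to 1.14 CPM) were not told from 0.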
